A study of Homo sapiens with 6 samples.

Results

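U2 small nuclear RNA is encoded by RNU2-1 and RNU2-2P, the 2 genes described here from Nm-mut-seq of HepG2, a cell line derived from a human liver tumour. They were taken by name from GENCODE release 44, and the table rows inside each gene on its own strand were converted to U2 coordinates, counted from 1 at the 5′ end. RNU2-2P (ENSG00000222328) had 90 listed positions of 387463 in the whole series, and RNU2-1 (ENSG00000274585) had 0. The results on RNU2-1 are therefore about where its sequence was and was not listed.

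Chromatin-associated RNA was prepared in 3 replicates, freed of rRNA and of short RNA, fragmented and ligated to adapters. Both reverse transcription reactions were run on a part of each ligated sample and held 1 mM dATP. The imbalanced dNTP reaction had 2 µM dGTP, dCTP and dTTP, and the balanced one had 1000 µM. This gave 6 libraries from untreated cells of one line, 3 for each reaction. Under imbalanced dNTP, reverse transcriptase tends to misread a ribose-methylated (Nm) G, A or C as T, whereas balanced dNTP serves as the input. U2 falls in the size class that the clean-up step was designed to remove, so the reads described here came from what remained. The tables list a position only where some read carried T, so an unlisted position is not a position without reads. In RNU2-2P, 1 read with T was enough for listing under balanced dNTP. Its positions listed under imbalanced dNTP had 3 or more in at least 1 library. The 2 listings therefore do not share a threshold.

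U2 is the RNA core of the spliceosomal U2 snRNP, which recognizes the branch site of introns. Its 5′ part pairs with the branch site and with U6 RNA and carries most of its ribose methyl groups and pseudouridines, while its 3′ part holds the Sm protein binding site and the stem-loops that bind further U2 proteins. Small Cajal body RNAs guide the methylation, among them SCARNA9 and SCARNA2.

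The sequence of RNU2-1 is shown whole because every comparison turns on its numbering. It lies at chr17:43233787-43233977 on the minus strand (hg38). Capitals mark 10 positions known from general knowledge to carry Nm in human U2 (A1, U2, G11, G12, G19, G25, A30, C40, U47 and C61), of which 8 are G, A or C and can be read by the method.
RNU2-1: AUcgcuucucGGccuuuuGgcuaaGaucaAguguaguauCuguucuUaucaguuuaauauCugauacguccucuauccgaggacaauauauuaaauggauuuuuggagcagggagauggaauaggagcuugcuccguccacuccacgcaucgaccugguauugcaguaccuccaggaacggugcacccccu
The branch site recognition sequence GUAGUA stands at positions 33 to 38 and the Sm site AUUUUUGG at positions 99 to 106 in both genes. All 10 known positions had the same base in both genes.

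RNU2-2P lies at chr11:62841619-62841809 on the minus strand, inside an exon of WDR74 that is annotated as UTR. It is 191 nt long like RNU2-1 and 95.8% identical to it. The 8 differing bases were G108A, C109A, A110T, G111A, C170T, C187T, C189T and T191C, with the base of RNU2-1 first. The 4 adjacent differences stand just behind the Sm site and are shown in capitals (chr17:43233855-43233878 and chr11:62841687-62841710, minus strand), since reads that cross them can be told apart between the genes.
RNU2-1, positions 100 to 123: uuuuuggaGCAGggagauggaaua
RNU2-2P, positions 100 to 123: uuuuuggaAAUAggagauggaaua
Positions 1 to 107 are the same in both genes, which includes every known methylated position, so reads confined to that stretch cannot be told apart between RNU2-1 and RNU2-2P.

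In all, 176343 positions were listed under imbalanced dNTP, 246881 under balanced dNTP and 35761 under both. The depth summed over them was 17063930 to 22485865 reads in the imbalanced libraries and 22974020 to 34367262 reads in the balanced libraries. Of 8 hepatocyte genes checked, 6 had listed positions in the imbalanced table, with 806 for ALB and 6226 for APOB, and TTR and FGB had 0. PTPRC, COL1A1, PECAM1 and HBB, markers of blood, stromal and endothelial cells, had 0 in both tables.

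RNU2-1 had no listed position in any of the 6 libraries. GENCODE annotates 90 U2 genes and copies, and 11 of them, between 43233787 and 43300231 on chromosome 17, share the 191-nt sequence of RNU2-1 exactly. None of the 11 had a listed position. A further copy in the same array (ENSG00000274452, chr17:43290291-43290481), which differs from RNU2-1 only by C170T, had 18 listed positions under imbalanced and 13 under balanced dNTP. RNU2-2P also has U at this position. The single base is shown in capitals (chr17:43233796-43233820 and chr11:62841628-62841652, minus strand).
RNU2-1, positions 158 to 182: guauugcaguacCuccaggaacggu
RNU2-2P, positions 158 to 182: guauugcaguacUuccaggaacggu
One more array copy (ENSG00000278774), which is 192 nt long and has no substitution against RNU2-1, had 1 listed position under imbalanced and 3 under balanced dNTP, at depths of 5 to 15 reads. The 11 identical copies were thus unlisted, while copies that differ from them by 1 base or in length were listed. How reads were placed among identical copies was not tested.

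In RNU2-2P, 77 of the 131 G, A and C positions were listed under imbalanced dNTP, 73 under balanced dNTP and 60 under both. The imbalanced listing ran from position 61 to position 188 and held 77 of the 94 readable bases in that range. None of the 35 readable bases at positions 1 to 60 was listed under imbalanced dNTP, and 3 of them (positions 3, 30 and 51) were listed under balanced dNTP. Listing took fewer reads with T under balanced dNTP, so these counts stand at unlike thresholds. No position within 1000 nt on either side of the gene was listed in either table on this strand, so no listed position of WDR74 lay beside the gene.

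Depth was highest at the 3′ edge of the 4 bases that tell RNU2-2P from RNU2-1 and fell toward the 5′ end. It peaked at 1057, 707 and 731 reads in imbalanced replicates 1 to 3, all at position 112. Balanced libraries peaked at 2023, 1286 and 1083 reads, at position 111 or 112. At C61, the most 5′ position of the imbalanced table, depth was 64, 41 and 79 reads. At A30 the balanced libraries had 48, 43 and 25 reads, and at C3 they had 15, 6 and 6. Toward the methylated 5′ part the listed depth thus fell in each library, as far as positions were listed.

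**Figure D1:**
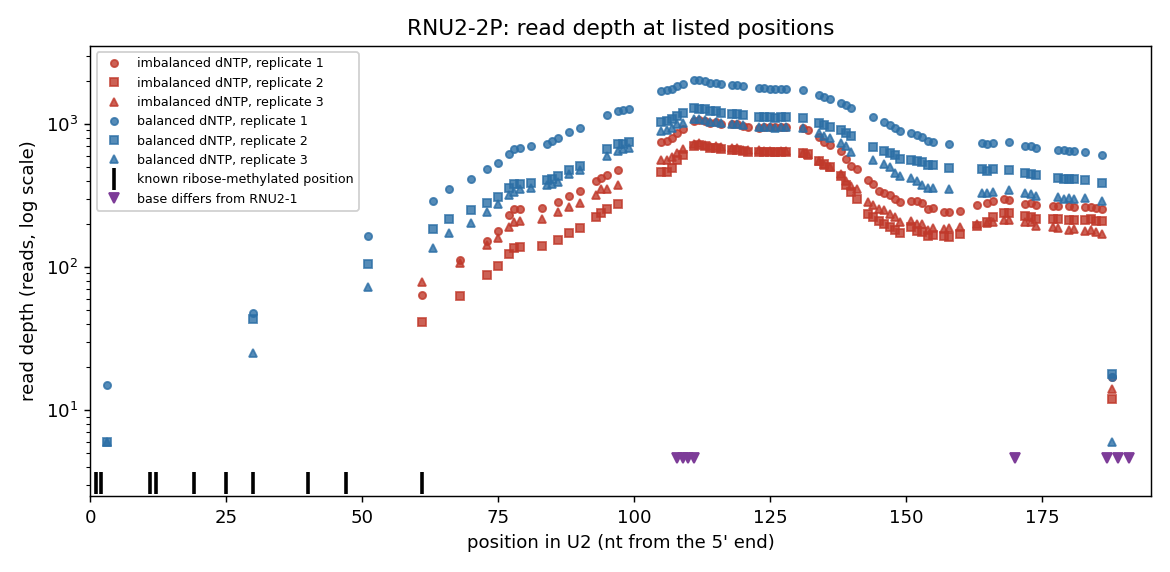
Read depth (log scale) at each listed position of RNU2-2P against position in U2, with imbalanced dNTP libraries in red and balanced dNTP libraries in blue, one marker shape per replicate. Black ticks mark the known methylated positions and purple triangles the bases that differ from RNU2-1. Depth peaked at position 111 or 112 in all 6 libraries and was 41 to 79 reads at position 61 under imbalanced dNTP.

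Relative to the input, imbalanced dNTP gave fewer reads over the outer stretches of RNU2-2P than over the series. The ratio of imbalanced to balanced depth had a median of 0.500, 0.661 and 0.714 in replicates 1 to 3 over all positions listed in both tables. Between positions 118 and 147 of RNU2-2P it was 0.532, 0.562 and 0.670. Between positions 73 and 115 it was 0.415, 0.414 and 0.613, lower than the middle stretch in each replicate, and between positions 148 and 188 it was 0.394, 0.477 and 0.596.

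Of the 8 readable known positions, C61 was the only one listed under imbalanced dNTP in RNU2-2P. The methylation of C61 is guided by SCARNA2. Reads with T were 2 of 64, 5 of 41 and 4 of 79 in replicates 1 to 3. This is a mutation ratio, the share of reads with T, of 3.12%, 12.2% and 5.06%, with Wilson 95% intervals of 0.861% to 10.7%, 5.32% to 25.5% and 1.99% to 12.3%. All 3 intervals overlap, and the mean was 6.79% ± 4.78 (SD, n = 3). C61 was not listed under balanced dNTP, hence it has no listed input value and no test. The nearest position listed under balanced dNTP, G63, had 288, 183 and 135 reads. It missed the site criteria because replicate 1 had 2 reads with T, and it passed them without that replicate.

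Among the 77 listed positions, C61 ranked 17th, 3rd and 4th by mutation ratio in replicates 1 to 3 and 5th by the mean. For the other 76 positions the median was 1.82%, the quartiles were 0.967% and 3.07%, and the range was 0.398% to 19.7%. The ratio at C61 was 3.72 times their median for the means, and 1.87, 5.95 and 3.19 times in the single replicates. It was higher than the typical other position in 3 of 3 libraries, but by a factor that varied with 2 to 5 mutated reads. Listed positions had 3 or more reads with T in at least 1 imbalanced library. At the 41 to 79 reads of C61, that count alone gives a ratio above the median of the others. The rank and the factor therefore cannot be told apart from low depth.

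A30, methylated with the guide SCARNA9 and also known for an N6-methyl group on its base, was listed only under balanced dNTP. Reads with T were 3 of 48, 5 of 43 and 0 of 25, a mean of 5.96% ± 5.82 (SD, n = 3). Over the 3 libraries 8 of 116 reads held T, which is 6.90%, with 3.54% as the lower Wilson 95% limit. C3, the other position that was listed under balanced dNTP alone at a mean above 2%, had T in 2 of 15 reads in replicate 1 and in none of 6 and 6 reads in the others. A1, G11, G12, G19, G25 and C40 were in neither table. U2 and U47 are uridines, which the method cannot read. At this depth a difference between known and other positions of RNU2-2P could not be measured beyond C61, and at C61 it cannot be told apart from low depth.

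**Figure D2:**
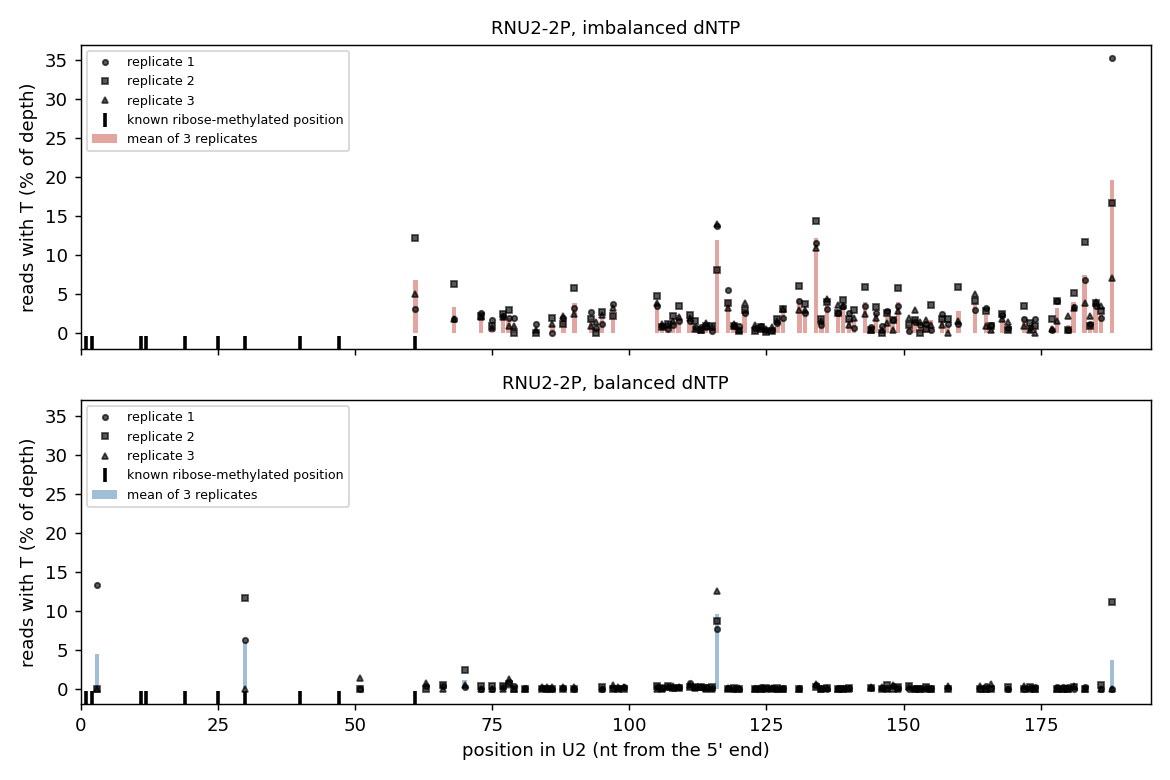
Share of reads with T (mutation ratio, % of depth) along RNU2-2P under imbalanced dNTP (upper panel) and balanced dNTP (lower panel). Bars give the mean and black markers the 3 replicates, and black ticks mark the known methylated positions. Position 116 was high in both panels, whereas positions 134 and 183 were high under imbalanced dNTP alone.

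Mutation ratios in the 3′ part of RNU2-2P were low and alike in the 3 replicates, and most of the tested ones rose under imbalanced dNTP. Over the 60 positions listed in both tables, T made up 2.32%, 2.59% and 2.27% of the depth in imbalanced replicates 1 to 3 and 0.332%, 0.333% and 0.453% in balanced ones. The groups did not overlap, with 2.39% ± 0.172 (SD, n = 3) against 0.373% ± 0.0699. Listing took more reads with T under imbalanced dNTP, so this set of positions favours a higher share there. A116 held most of the T reads of the balanced libraries, and without it the shares were 1.97%, 2.42% and 1.91% against 0.138%, 0.106% and 0.121%. Mismatches to bases other than T, leaving out positions 109, 178 and 188 where these were common, stayed at 0.217% ± 0.00972 under imbalanced and 0.213% ± 0.0205 under balanced dNTP. At position 178, one of those left out, reads with G differed between the reactions.

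By edgeR's quasi-likelihood test, 52 of the 59 positions tested in RNU2-2P rose under imbalanced dNTP at an adjusted p below 0.05 and 0 fell, also at an unadjusted p below 0.05. This is 88.1% of the tested positions, against 73.9% of all 32284 positions tested in the series, but the order of these shares depended on the setting. It turned with DESeq2 (74.6% against 75%), with Fisher's exact test in each replicate (39% against 46.9%), at a depth of at least 50 (89.8% against 91.5%) and without replicate 1 (54.2% against 55%). Without replicate 1 the count fell to 32 of 59. The log2 change had a median of 3.62, against 3.94 over all positions tested, and lay between 0.44 and 6.90. The ranges of the 3 replicates did not overlap, with imbalanced dNTP higher, at 49 of the 60 positions listed in both tables, against 75.2% of all such positions. With Fisher's exact test in each replicate, 23 positions passed. Positions of one RNA share reads and are not independent. Only positions listed under both reactions were tested, and listing took more reads with T under imbalanced dNTP. Positions listed under balanced dNTP alone, such as C70, G98 and A99, were left out. The count that rose and the absence of falls are therefore in part set by this selection.

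Sites were taken as positions with a depth of at least 10, at least 3 reads with T and more than 3 times the mutation ratio of the input in all 3 replicates. An unlisted input was counted as free of reads with T. The paper also required a ratio above that of its spike-in background. This criterion was not applied, so the sites here are not sites by the full definition of the paper. In RNU2-2P, 39 of the 77 listed positions passed (50.6%), against 16.8% of all listed positions. With 50 or more reads in each imbalanced library, 39 of 75 passed (52%), against 64.2% of all positions at that depth. The 39 were 14 A, 15 G and 10 C, and 10 of them had no listed input. Their mean ratios ran from 0.783% to 12.3% with a median of 2.78%. Only 2 of them, C134 and G183, reached a mean of 5%, which 41.4% of all sites in the series did. Of the 38 that did not pass, 33 had fewer than 3 reads with T in at least 1 library and 23 were within 3 times the input, with some in both sets.

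The 5 positions outside the known list with the highest mean ratio at a depth of at least 10 were C188, C134, A116, G183 and G131, at 62841622, 62841676, 62841694, 62841627 and 62841679 on chromosome 11. Their neighbouring bases can be read from the sequence of RNU2-1 above, which is the same there except around C188. G131, C134 and G183 each follow a uridine, and A116 follows a guanosine.

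C134 had the clearest difference from the input. Reads with T were 94 of 814, 79 of 551 and 60 of 549 under imbalanced dNTP and 8 of 1594, 2 of 1012 and 5 of 857 under balanced dNTP. All 3 imbalanced libraries (10.9% to 14.3%) lay far above the balanced ones (0.198% to 0.583%). The log2 change was 4.96 (SE 0.32, adjusted p = 5.38e-52, edgeR), and the mean was 12.3% ± 1.82 (SD, n = 3).

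G183, near the 3′ end, had T in 18 of 262, 25 of 214 and 7 of 179 reads under imbalanced dNTP. Balanced libraries had 1 of 632, 0 of 402 and 0 of 303. Every imbalanced library was higher, although their ratios spread from 3.91% to 11.7%. The log2 change was 6.26 (SE 0.84, adjusted p = 3.25e-13, edgeR). G131 had T in 39 of 938, 38 of 630 and 19 of 627 reads, against 1 of 1718, 0 of 1102 and 0 of 936 in the input. It had the highest log2 change of the gene, 6.90 (SE 0.64, adjusted p = 3.19e-26, edgeR), from a lower mean ratio of 4.41% ± 1.52 (SD, n = 3).

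A116 was high in both reactions. Reads with T were 138 of 999, 54 of 666 and 96 of 688 under imbalanced dNTP and 143 of 1882, 104 of 1194 and 126 of 1012 under balanced dNTP. The ranges overlapped, with 13.8%, 8.11% and 13.95% against 7.60%, 8.71% and 12.5%, and in replicate 2 the input was the higher one. The log2 change was 0.44 (SE 0.16, adjusted p = 0.0106, edgeR), the lowest of the 59, and it did not pass without replicate 1 (log2 change 0.06, adjusted p = 0.797) or replicate 3 (adjusted p = 0.0505). A116 failed the site criteria because of its input.

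C188 had the highest mean but the lowest depth. T was in 6 of 17, 2 of 12 and 1 of 14 reads under imbalanced dNTP and in 0 of 17, 2 of 18 and 0 of 6 under balanced dNTP. Intervals of single libraries reached from 1.27% to 58.7% under imbalanced dNTP, and the groups overlapped. Reads with A were also found there, in 5, 5 and 2 reads under imbalanced and 8, 8 and 3 under balanced dNTP, where they outnumbered reads with T. Depth fell to this level from 254, 210 and 171 reads at C186, so the values at C188 rest on 6 to 18 reads per library.

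The 3 readable positions where RNU2-2P differs from RNU2-1 were all listed. A108 rose by a log2 change of 3.46 (SE 0.67, adjusted p = 6.92e-07, edgeR), from 0.148% ± 0.135 to 1.60% ± 0.561 (SD, n = 3). A109 rose by 3.51 on the log2 scale (SE 0.54, adjusted p = 2.28e-10, edgeR) and A111 by 1.90 (SE 0.44, adjusted p = 3.45e-05, edgeR). The means under imbalanced dNTP were 2.40% at A109 and 1.93% at A111. All 3 positions were above the nearest listed ones, G106 (1.02%), A107 (0.916%) and G112 (0.953%). They were below G105 in the Sm site, which reached 4.06% ± 0.677, and G118, which reached 4.25% ± 1.20 (SD, n = 3).

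Reads with the RNU2-1 base were rare at these positions. G, the base of RNU2-1, was in 5 of 1840, 5 of 1141 and 2 of 990 balanced reads at A108, and in 2 of 2023, 0 of 1286 and 0 of 1075 at A111. At A109 the base of RNU2-1, C, made up 3.86% ± 0.436 of balanced reads (SD, n = 3), and G, which neither gene has, made up 6.00% ± 2.41. At position 178, where both genes have A, G made up 279 of 656, 180 of 418 and 129 of 306 reads under balanced dNTP, or 42.6% ± 0.455 (SD, n = 3). Under imbalanced dNTP the share was 31.3% ± 2.74, below every balanced library. Only RNU2-21P has G at this position among the annotated copies. The source of these reads was not tested.

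Mutation ratios of RNU2-2P differed by neighbouring base on both sides. Among the 75 positions of RNU2-2P listed at a depth of at least 50, the 22 that follow a uridine had a median of 2.62% and the other 53 a median of 1.26%. The medians were 2.64%, 2.53% and 2.19% after uridine in imbalanced replicates 1 to 3 and 1.14%, 1.81% and 1.29% after other bases. By single base before the position, the medians were 2.62% for U, 2.00% for C, 1.15% for A and 1.00% for G, and in replicate 2 C (2.78%) was above U. By the base after the position, they were 2.58% for U, 2.45% for C, 1.11% for G and 0.947% for A. Uridine came before 7 of the 10 highest positions and before 1 of the 20 lowest. Over all 39998 positions at that depth the medians were 4.74% after uridine and 2.27% after other bases, so RNU2-2P had the order of the whole series at lower values. In the input these medians were 0.119% or lower in every replicate. This is a description over positions that share libraries and reads.

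**Figure D3:**
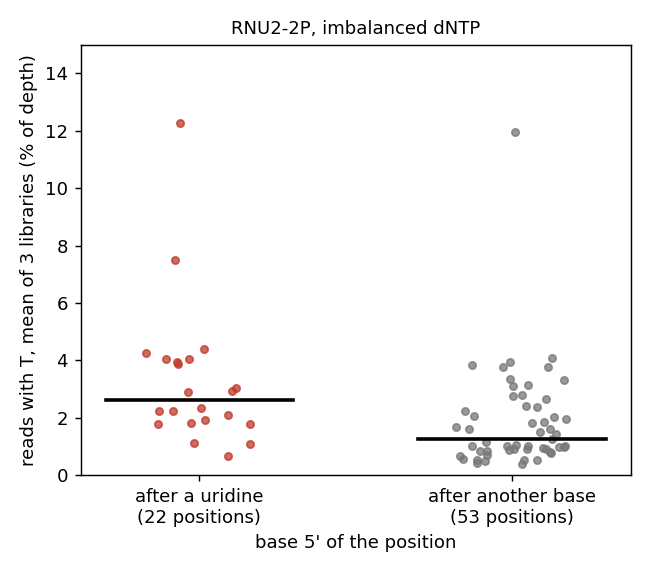
Mean share of reads with T over the 3 imbalanced dNTP libraries at the 75 positions of RNU2-2P covered by 50 or more reads in each of them, grouped by the base on the 5′ side. Each point is a position (sideways spread is only for legibility) and black lines are medians, 2.62% after a uridine and 1.26% after another base.

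The array copy that differs from RNU2-1 only by C170T gives a view of the 3′ end that is closest to RNU2-1. It shared 16 listed positions with RNU2-2P under imbalanced dNTP, and the replicate ranges of the 2 genes overlapped at 10 of them. At the other 6 the copy was higher. The copy was the shallower of the 2, with median depths of 136.5, 136 and 109.5 reads over its listed positions. Shared positions had 3 or more reads with T in at least 1 library of the copy, which takes a higher ratio at lower depth. The direction of these differences is therefore in part set by this selection. At A185 the copy had 18.1%, 15.7% and 11.9% in replicates 1 to 3, against 3.46%, 3.83% and 3.98% in RNU2-2P. At C186 it had 6.47%, 9.15% and 9.09%, against 1.97%, 2.86% and 3.51%. At G183 the ranges overlapped, with 10.9% ± 1.75 in the copy and 7.49% ± 3.92 in RNU2-2P (SD, n = 3). A185 and C186 stand near base 187, which is C in the copy and U in RNU2-2P. Whether that base has a part in the difference was not tested.

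Known positions that were unlisted in RNU2-1 and RNU2-2P were listed in a few other U2 copies. Of the other 88 copies, RNU2-48P had 22 positions under imbalanced dNTP, most of them in the 5′ part. Its window (chr5:157976880-157976924, minus strand) is shown beside that of RNU2-1 (chr17:43233901-43233945, minus strand), with positions 40, 61 and 67 in capitals, because it differs from RNU2-1 there only by C61T and C67T.
RNU2-1, positions 33 to 77: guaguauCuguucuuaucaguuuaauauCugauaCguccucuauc
RNU2-48P, positions 33 to 77: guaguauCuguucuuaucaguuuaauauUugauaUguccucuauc
C40, a known Cm, had T in 65 of 116, 69 of 116 and 42 of 75 reads under imbalanced dNTP, or 57.2% ± 2.00 (SD, n = 3). The 3 libraries were alike, and the ratio was the highest of that copy, ahead of G68 with 24.3%, 32.3% and 27.8%. Balanced libraries had T in 0 of 12, 1 of 14 and 0 of 7 reads. The depth under balanced dNTP was below the minimum for the test in replicate 3. RNU2-48P has U in place of the known Cm at position 61, so a read of U2 with T there matches it.

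RNU2-60P showed the same arrangement around A30. Its window (chr11:111383111-111383136, plus strand) differs from that of RNU2-1 (chr17:43233933-43233958, minus strand) only by C40T, which also puts U in place of a known Cm. Positions 25, 30 and 40 are in capitals.
RNU2-1, positions 20 to 45: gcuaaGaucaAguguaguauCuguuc
RNU2-60P, positions 20 to 45: gcuaaGaucaAguguaguauUuguuc
A30 had T in 19 of 24, 13 of 17 and 13 of 20 reads under imbalanced dNTP and in 2 of 23, 2 of 17 and 0 of 15 under balanced dNTP. The groups were far apart, at 73.5% ± 7.52 against 6.82% ± 6.10 (SD, n = 3), and the edgeR test passed (adjusted p = 9.09e-05). This copy was chosen after its values were seen, so the p-value is not independent evidence. G25, a known Gm, had T in 4 of 23, 2 of 15 and 1 of 19 reads and no listed input. In these copies the known positions were read as T in most reads at C40 and A30 and in fewer at G25. Such shares were also found outside the known positions, here at bases where the copies differ from RNU2-1. Means were 59.3% at position 136 of RNU2-70P and 51.8% at position 90 of RNU2-7P. The base of RNU2-1 was in 23 of 53, 22 of 56 and 16 of 53 reads at the former. At the latter it was in 7 of 27, 6 of 22 and 5 of 15. These shares are therefore not directly comparable with those at C40 and A30, where copy and RNU2-1 have the same base.

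C61 was listed in 3 further copies under imbalanced dNTP. In RNU2-61P it had T in 11 of 39, 16 of 53 and 15 of 40 reads, a mean of 32.0% ± 4.90 (SD, n = 3), with no overlap with the 3.12% to 12.2% of RNU2-2P. In RNU2-64P it had T in 2 of 14, 5 of 12 and 5 of 11 reads. In RNU2-6P it had T in 3 of 12, 2 of 14 and 2 of 10 reads, but also in 6 of 44, 3 of 15 and 1 of 10 balanced reads, with a log2 change of 0.52 (SE 1.45, adjusted p = 0.724, edgeR). Other positions of RNU2-61P were also above those of RNU2-2P, with means of 35.4% at position 79 and 16.3% at position 70. Position 79 also had a mean of 15% under balanced dNTP, at a mean depth of 7.67 reads. Higher ratios were thus found at known and other positions of that copy.

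Which gene such reads came from was not tested. Of the 90 U2 genes and copies, 28 had listed positions under imbalanced dNTP and 24 under balanced dNTP, and 13 were listed under imbalanced dNTP alone. RNU2-7P, RNU2-56P and RNU2-70P had 31, 31 and 30 imbalanced positions and 0 balanced ones. At position 91 of RNU2-56P, where the copy has G and RNU2-1 has U, T was in 74 of 75, 38 of 40 and 47 of 48 reads, which is the base of RNU2-1 and of RNU2-2P. The reads over this copy therefore carried the U2 base at that position in nearly every case, although T is also the base that the imbalanced reaction produces. Elsewhere the share of the RNU2-1 base varied. It was 71.2% to 80% at position 127 of RNU2-7P and 0% to 3.1% at position 97 of RNU2-59P. Mutation ratios of single copies may thus include reads from other U2 genes, to an extent that was not tested.

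**Figure D4:**
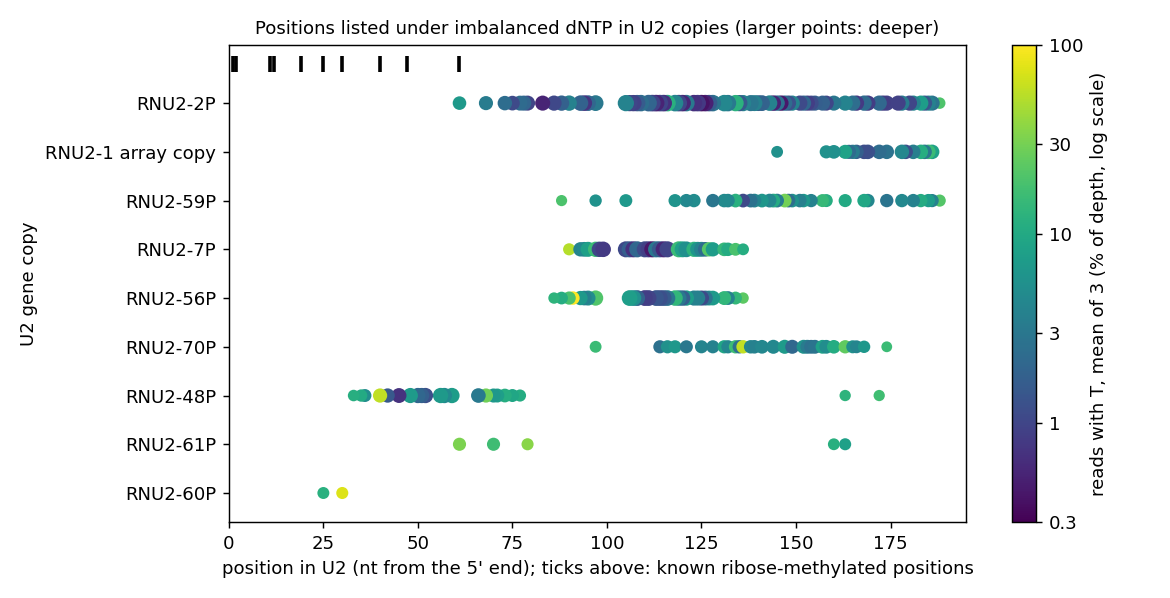
Positions listed under imbalanced dNTP in RNU2-2P, in the array copy that differs from RNU2-1 by 1 base and in 7 other U2 copies, against position in U2. Colour gives the mean share of reads with T (log scale), larger points are deeper, and ticks at the top mark the known methylated positions. RNU2-1 is not drawn because it had 0 listed positions, and the bright points of RNU2-48P and RNU2-60P are C40 (57.2%) and A30 (73.5%).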

How the data were processed

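Nm-mut-seq libraries of HepG2 chromatin-associated RNA were analysed, 3 per dNTP reaction. The authors used Cutadapt for trimming, BBMap for duplicates marked by molecular identifiers, TopHat2 for mapping to hg38 and JACUSA for base counting. The mapper kept a limited number of placements and mismatches per read, so identical copies can share or lose reads. The deposited values are raw read counts for the bases at a position on its strand, in a separate table for each reaction. The deposited JACUSA score was left out, as was the spike-in background.

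Genes came from GENCODE release 44 on hg38, and copies were aligned to RNU2-1 for U2 coordinates. Known methylated positions came from general knowledge. The genes, the lists and the tests were chosen with earlier results of these data known. Positions named are the known ones that can be read, the 5 others that were highest by mean ratio where 10 or more reads covered them, the listed positions where the genes differ, and positions listed under balanced dNTP alone at a mean above 2%. G105, G106, A107, G112, G118 and the other copies were chosen after their values were seen.

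Reads with T were tested against the remaining reads in edgeR (version 4.0.16, R version 4.3.3) by its quasi-likelihood F test. Every library had its own effect, the replicate was a block on the share of T, and p-values were adjusted by Benjamini-Hochberg over the 32284 positions that reached 10 reads in each library. Alternatives included DESeq2 (version 1.42.0), Fisher's test per replicate, other depth filters, other site criteria and leaving out each replicate. On simulated data with 200 changed positions, the fit recovered 62% of them and called 0 unchanged ones. The simulated reads had counting error only, so that check does not measure false calls under the spread between real replicates. Replicate numbers pair the libraries because both reactions were run on one ligated sample. Deviations of depth correlated within pairs at 0.75, 0.59 and 0.87, although replicates 1 and 2 were also alike across numbers, at 0.70 and 0.60. Wilson intervals (95%) cover counting error only. Tables and figures were made in Python 3.11.15 (pandas 2.3.3, numpy 2.4.6, matplotlib 3.10.9, scipy 1.17.1).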

Additional observations from a re-analysis of the deposited data

How the results depend on the processing

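The count of RNU2-2P positions that rose under imbalanced dNTP (52 of 59) was 44 with DESeq2, 52 with TMM factors, 53 at a depth of at least 50 and 50 of 60 without a depth filter. Without the replicate block it was 55. It fell to 23 with Fisher's exact test in each replicate and to between 32 and 38 when a replicate was left out, 32 without replicate 1. None of the tested positions, which were all listed under both reactions, fell under any of these. The 39 sites became 1 (C134) when the ratio had to be at least 0.05 or at least 0.1 in each library, between 44 and 49 without a replicate, and between 27 and 43 under the other criteria. The ratio of C61 to the median of the other positions (3.72) stayed between 3.20 and 5.40 under the other definitions and between 2.60 and 4.51 without a replicate, with an SD of 2.08 over single replicates. It has no value at a depth of at least 50, which C61 did not reach. A111 did not pass Fisher's test (adjusted p = 0.0789), and A116 did not pass with DESeq2 (adjusted p = 0.640), Fisher's test (adjusted p = 1) or without replicate 1 or 3. The comparison of RNU2-1 with RNU2-2P at the same position was not run because RNU2-1 had no listed position. Leaving out A116, chosen after seeing the data, moved the share of reads with T over the positions listed under both reactions from 2.39% to 2.10% under imbalanced dNTP and from 0.373% to 0.122% under balanced dNTP. Depth limits the 5′ part, where single reads decide the ratios.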
